A study of Caenorhabditis elegans with 2 samples.

Results

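The genes examined were the 270 nuclear hormone receptor genes of the nematode Caenorhabditis elegans that carry an nhr number, except nhr-25, nhr-23 and nhr-85, together with unc-55, fax-1, sex-1 and odr-7. They were picked out by symbol from 19985 protein-coding genes, with earlier results of these data known, and the 3 nhr genes left out all have thresholded peaks. Every one of the 270 was followed through the deposited peak lists. The lists came from chromatin immunoprecipitation and sequencing (ChIP-seq) of NHR-25 itself, in 2 biological replicates of 1 group. The worms were whole hermaphrodites of strain OP33 at the L4 larva stage, with the genotype unc-119(ed3) III; wgIs33. The strain is a single transgenic line that makes NHR-25 fused at its C terminus to GFP and FLAG, and anti-GFP was used for precipitation. Because whole worms were used, a peak does not say in which cells NHR-25 was bound. The labels do not give the promoter of the transgene, and no control file was used here. Read depth is unknown, so intervals cover counting error only.

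Nuclear hormone receptors are transcription factors with a zinc-finger DNA-binding domain and a domain that can bind small lipophilic ligands. Most of the large worm family descends from an ancestor related to HNF4, a receptor of liver and gut in mammals, while a few worm members have direct counterparts in insects and mammals. NHR-25 is the worm NR5A receptor, the family of fly FTZ-F1 and mammalian SF-1, and is needed for moulting, epidermal development and the somatic gonad. NR5A receptors bind DNA as monomers at a receptor core AGGTCA with an extension on its 5′ side.

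A receptor gene was said to have a peak when a summit of the thresholded list lay within 2 kb of its annotated 5′ end and no other protein-coding 5′ end was closer. Annotated 5′ ends of worm genes need not be transcription starts, since many worm transcripts are trans-spliced. By this rule 26 receptor genes had a peak, with 34 of the 1392 summits assigned to any protein-coding gene and of the 1826 thresholded summits in all. The 5 sequences below are from ce11 (RefSeq's WBcel235), 50 bases to each side of a summit, from the 7 strongest receptor gene summits, and show the DNA under those peaks. All 5 are intergenic or intronic, and the 2 summits whose sequence overlaps a UTR or a noncoding exon are not printed. Capitals mark the GAGA repeat GAGAGAG in the nhr-48 sequence, and no other searched motif lies in these stretches.
nhr-14, chrX:8475313-8475413, plus strand: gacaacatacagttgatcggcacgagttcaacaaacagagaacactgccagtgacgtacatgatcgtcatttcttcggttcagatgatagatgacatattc
nhr-14, chrX:8477577-8477677, plus strand: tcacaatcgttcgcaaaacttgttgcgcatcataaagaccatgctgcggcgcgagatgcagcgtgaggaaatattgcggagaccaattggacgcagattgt
nhr-3, chrX:14560404-14560504, plus strand: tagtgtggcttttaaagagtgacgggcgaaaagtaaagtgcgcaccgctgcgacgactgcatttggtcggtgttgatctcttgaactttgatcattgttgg
nhr-21, chrII:7337498-7337598, plus strand: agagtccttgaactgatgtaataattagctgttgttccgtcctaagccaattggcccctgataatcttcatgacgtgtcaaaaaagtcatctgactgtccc
nhr-48, chrX:15707554-15707654, plus strand: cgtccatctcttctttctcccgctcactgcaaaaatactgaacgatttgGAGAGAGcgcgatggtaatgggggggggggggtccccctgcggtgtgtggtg

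A further 6 sequences show the motifs found at weaker receptor gene summits, and were chosen after their motifs were seen. In the first 4 the capitals mark the receptor core AGGTCA, or TGACCT where it lies on the minus strand. In the last 2 they mark GAGACGCAG, an EOR-1 type site named for a worm zinc-finger protein, or its reverse complement CTGCGTCTC. The nhr-1 sequence also carries an overlapping run of the GAGA repeat in capitals.
nhr-43, chrIV:11901420-11901520, plus strand: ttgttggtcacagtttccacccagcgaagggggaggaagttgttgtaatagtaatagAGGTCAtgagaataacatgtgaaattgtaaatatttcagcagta
nhr-22, chrII:6448337-6448437, plus strand: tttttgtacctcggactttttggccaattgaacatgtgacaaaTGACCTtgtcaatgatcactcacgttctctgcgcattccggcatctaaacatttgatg
nhr-91, chrX:15312242-15312342, plus strand: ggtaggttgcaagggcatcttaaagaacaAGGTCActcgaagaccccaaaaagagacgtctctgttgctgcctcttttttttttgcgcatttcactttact
nhr-258, chrIV:8042966-8043066, plus strand: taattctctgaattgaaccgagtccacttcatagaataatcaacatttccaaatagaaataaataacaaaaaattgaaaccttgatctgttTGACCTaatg
nhr-58, chrV:532139-532239, plus strand: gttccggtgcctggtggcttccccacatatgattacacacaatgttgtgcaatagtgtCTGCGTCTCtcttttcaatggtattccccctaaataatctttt
nhr-1, chrX:17513759-17513859, plus strand: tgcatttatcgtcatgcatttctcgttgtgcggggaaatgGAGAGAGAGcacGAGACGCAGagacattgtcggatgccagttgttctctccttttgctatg

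The strongest receptor gene peaks were at nhr-14, which acts in intestinal iron uptake and innate immunity. Its first summit lay in an intron, 813 bp inside the gene from the 5′ end, with a pooled signal of 83.5 and rank 127 of 1826. The replicate 1 signal was 32.8 (rank 184) and the replicate 2 signal 45.9 (rank 204). Both replicates placed it among their strongest 1826 peaks. The second nhr-14 summit, 1449 bp upstream and intergenic, reached 65.2 in the pool. It ranked lower in replicate 1, at 15.7 (rank 1253), than in replicate 2, at 50.5 (rank 162). Signals are the authors' values on a scale that is not stated, so a higher signal in one list than in another is not read here as more binding, and ranks are given beside it.

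The gene nhr-91, the worm member of the NR6A family to which mammalian GCNF belongs, had 3 summits. The strongest had a pooled signal of 66.4 (rank 246), 23.5 in replicate 1 and 50.5 in replicate 2, and lay in an intron that also holds the noncoding gene Y15E3A.15. The others had pooled signals of 43.7, 238 bp inside a 5′ end, and 32.6, 371 bp upstream of one, and both were also intronic because the gene has several 5′ ends. The gene nhr-48, related to the steroid receptor DAF-12, had an intergenic summit of 49.99 at 609 bp upstream and an intronic one of 40.96. The upstream summit had signals of 22.4 and 24.1 in replicates 1 and 2, and both were among the strongest 1826 of their list.

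Also on chromosome X, nhr-3 had an intronic summit of 58.3. It lay 1950 bp inside the gene, near the edge of the window. Its replicate signals were 24.6 and 38.98 (ranks 421 and 321). On chromosome II, nhr-21 had 3 summits. The strongest, of 58.1 at 1681 bp upstream, had 25.4 in replicate 1 and 29.7 in replicate 2. The next, of 40.2 at 1479 bp upstream, comes from an overlapping pooled peak that meets the same replicate peaks, so these are not separate measurements. The last, of 33.2 in a coding exon 8 bp from the 5′ end, was among the strongest 1826 peaks of neither replicate. The gene nhr-19, also on chromosome II, had an intronic summit of 46.3, with 16.9 in replicate 1 and 24.4 in replicate 2. Of chromosome IV genes, nhr-43 had the strongest summit, of 48.3, with 21.7 and 27.5 in the replicates. This intronic summit lay 97 bp from the 5′ end of the noncoding gene C29E6.9.

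On chromosome V the strongest summit was at nhr-47, in a UTR 22 bp from the 5′ end. Its pooled signal was 54.3, with 11.8 in replicate 1 (rank 2291) and 39.9 in replicate 2 (rank 294). Only replicate 2 placed it among its strongest 1826 peaks. The noncoding gene C24G6.10 has a 5′ end 14 bp from this summit, and the chaperone gene dnj-19 one at 418 bp. The hypoxia-induced gene nhr-57, a target of the transcription factor HIF-1, had a summit of 46.3 at 167 bp upstream, with 11.4 in replicate 1 and 30.6 in replicate 2. The gene nhr-58 had one of 44.8 at 70 bp upstream, with 8.60 and 29.3. All 3 summits were within 500 bp of the 5′ end and ranked lower in replicate 1 than in replicate 2. Over the 8 chromosome V summits, 6 lay within 500 bp, with nhr-237 at 670 bp and nhr-70 at 1844 bp upstream. Replicate 2 placed 6 of the 8 nearer the top of its list than replicate 1 did, and replicate 1 did so at nhr-152 (961 against 2183) and nhr-256 (1403 against 2875).

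The other 16 receptor genes with a peak had top pooled signals from 30.4 at nhr-152 to 42.5 at nhr-49. NHR-49, an HNF4-type receptor, controls fatty acid use and the fasting response. Its summit, 362 bp upstream of the gene on chromosome I, had 13.9 in replicate 1 and 34.9 in replicate 2, both among the strongest 1826. The gene nhr-32 had a summit of 42.2, 1552 bp upstream, with 23.5 in replicate 1 (rank 480) and 16.6 in replicate 2 (rank 2568), so it was among the strongest of replicate 1 alone. The excretory cell gene nhr-31 had intronic summits of 36.4 and 33.9, the second 18 bp from the 5′ end of the noncoding gene C26B2.12. The gene nhr-40, which acts in muscle and body morphology, had a summit of 34.5 with 5.20 in replicate 1 (rank 9011) and 28.4 in replicate 2 (rank 797). The remaining genes of this range were nhr-1, nhr-22, nhr-46, nhr-70, nhr-97, nhr-105, nhr-120, nhr-135, nhr-152, nhr-237, nhr-256 and nhr-258. At nhr-152 the 5′ end of nhr-94, another receptor gene, was 87 bp from the summit and that of nhr-152 was 72 bp from it. Of the 2 nhr-258 summits, 1 lay inside the small nucleolar RNA gene C26B2.14.

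**Figure D1:**
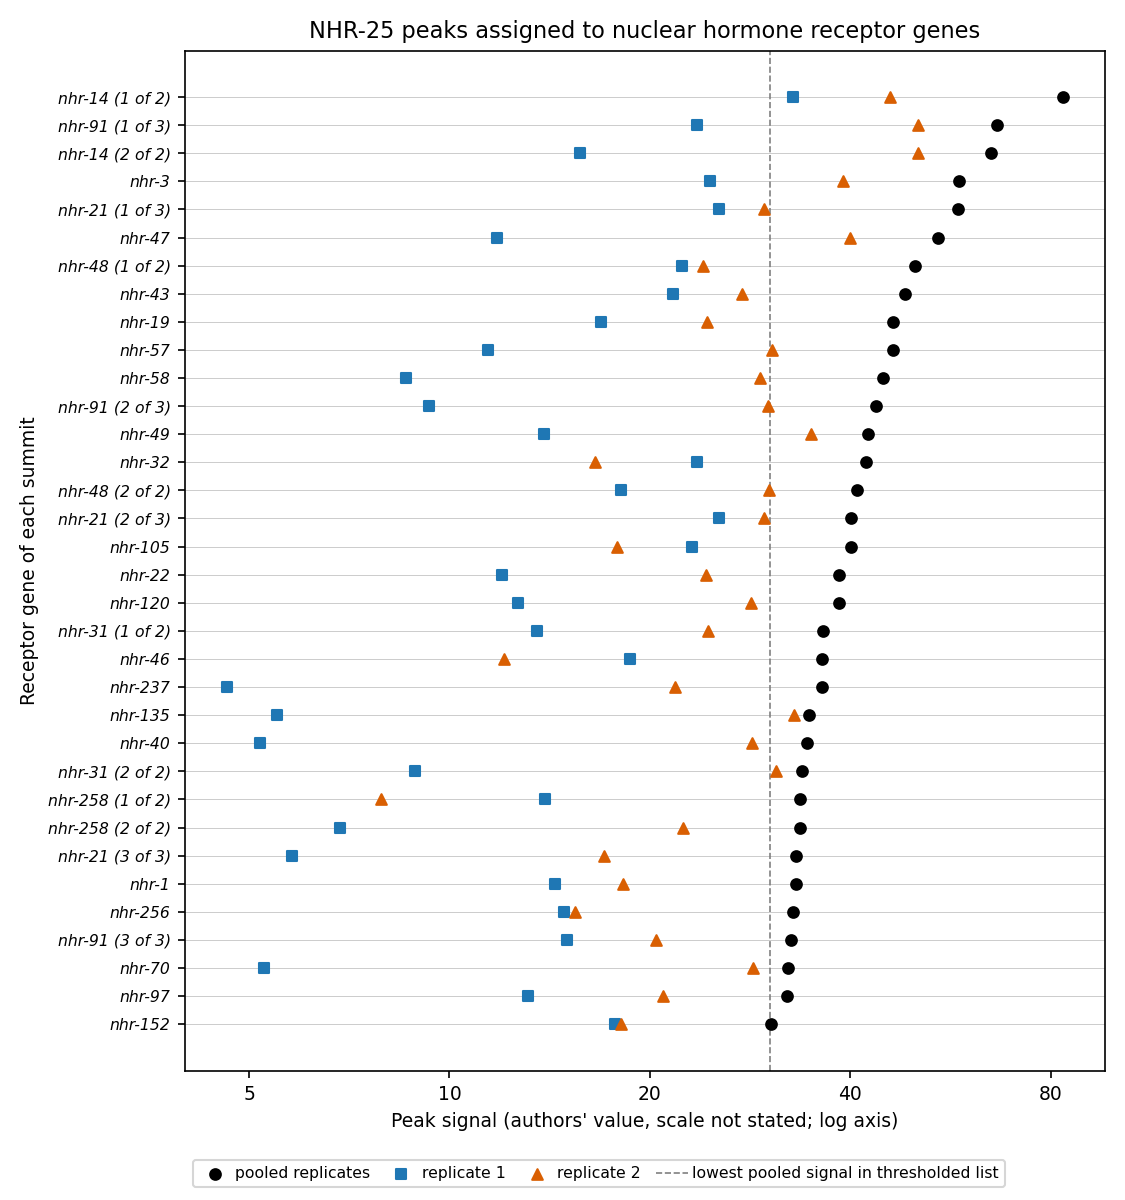
Signal of each of the 34 thresholded summits assigned to a receptor gene, on a log axis in the authors' unstated scale, for the pooled replicates and for the strongest overlapping peak of each replicate. Pooled values run from 83.5 at nhr-14 to 30.4 at nhr-152, and the replicate 2 point is right of the replicate 1 point at 30 of 34 summits.

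Receptor gene summits had a median pooled signal of 39.3, against 41.2 over all 1826 thresholded summits, and 14 of 34 were above the median of the whole list. None came near the highest thresholded signal, 1021. The whole list, and the genome-wide counts over all protein-coding genes, include mitochondrial DNA. The replicate 2 value was higher than the replicate 1 value at 30 of 34 (88.2%), as it was at 1467 of 1793 thresholded summits with a peak in both lists (81.8%). In the strongest 1826 peaks of both replicates there were 13 of 34 (38.2%, Wilson 95% interval 23.9 to 54.96), against 52.4% of all thresholded summits. The median ratio of replicate 2 to replicate 1 was 1.74, with a range from 0.568 to 5.99, and 1.57 over all. Spearman's rho between the replicate signals was 0.034 over the 34 summits and 0.293 over the 1793, given as a description of peaks in the same 2 libraries.

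Receptor genes on chromosome V had peaks at about the share of all genes there, while those on X, IV and II had them at higher shares than all genes did. Of 270 receptor genes 26 had a peak (9.63%, Wilson 95% interval 6.66 to 13.7), against 6.05% of all protein-coding genes. The lower end of this interval was just above the background. The family sits mainly on chromosome V, which holds 167 of the 270 genes (61.9%). There 8 of 167 had a peak (4.79%, 2.45 to 9.17), against 3.8% of all genes on V. Outside V, 18 of 103 had one (17.5%, 11.3 to 25.9), against 6.72%. No test of these shares was made, and the cause of the difference between chromosomes was not tested.

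Chromosome X had the highest share, 8 of 25 receptor genes (32.0%, 17.2 to 51.6) against 9.52% of all X genes. These were nhr-1, nhr-3, nhr-14, nhr-32, nhr-40, nhr-48, nhr-91 and nhr-120. The share was 3 of 15 on II (20%, 7.05 to 45.2) against 5.91%, and 6 of 33 on IV (18.2%, 8.61 to 34.4) against 5.3%. It was 1 of 22 on I (4.55%, 0.807 to 21.8) against 6.18%. On III none of 8 had a peak, which allows a share of up to 37.5%, against 7.23% of all genes there. Over the autosomes other than V it was 10 of 78 (12.8%, 7.12 to 22.02) against 6.1%. The numbers on I, II and III are too few to place these chromosomes in order. The native nhr-25 gene is itself on X, and the receptor gene summit nearest to it, at nhr-32, was 236 kb away. The labels do not place the transgene.

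**Figure D2:**
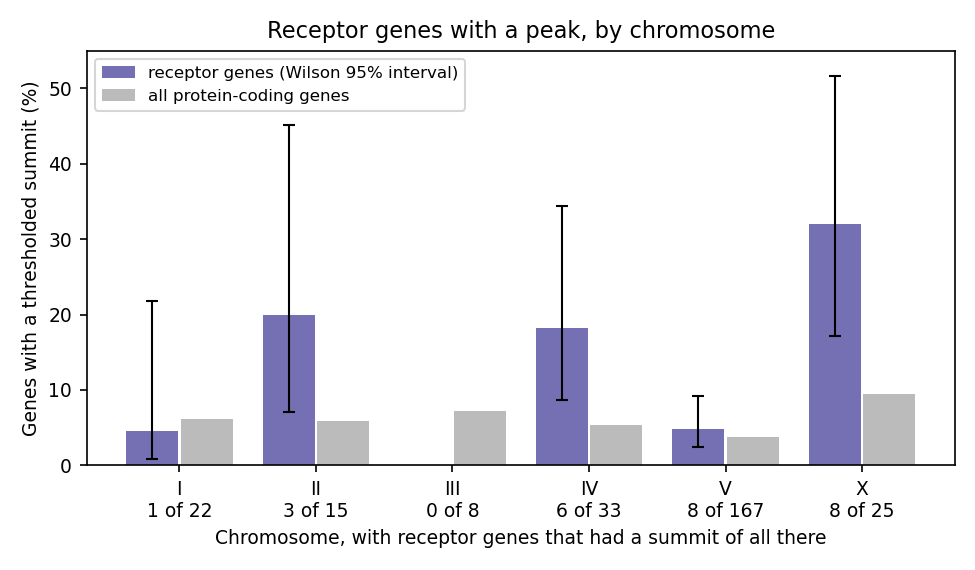
Percent of receptor genes (purple, with Wilson 95% intervals) and of all protein-coding genes (grey) with a thresholded summit on each chromosome, with the number of receptor genes under each. The receptor gene bar is highest on X at 32.0%, is near the grey bar on V at 4.79% against 3.8%, and is at 0 of 8 on III, drawn without an interval.

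Outside V the 2 replicates gave the same count, though not all of the same genes, and on V the counts differed. In the strongest 1826 peaks of replicate 1, 20 of 270 receptor genes had a summit (7.41%, 4.85 to 11.2) against 5.8% of all genes, and in those of replicate 2 there were 24 (8.89%, 6.05 to 12.9) against 5.96%. The first interval includes its background and the lower end of the second is just above its own. Outside V the count was 17 of 103 (16.5%) in each replicate, against 6.44% and 6.7% of all genes. On X it was 7 of 25 in replicate 1 (28%, 14.3 to 47.6), against 9.3% of all X genes. In replicate 2 it was 8 of 25 (32%, 17.2 to 51.6), against 9.08%. Over all 270 genes, 10 were in both replicates, all of them outside V. A further 10 were in replicate 1 alone and 14 in replicate 2 alone. The matching counts over all genes are not given here, so these do not show whether receptor genes recurred more or less than others. On V the count was 3 of 167 (1.80%) in replicate 1 against 3.64%, and 7 of 167 (4.19%) in replicate 2 against 3.5%. The V share was thus below the background in replicate 1 and above it in replicate 2, with both intervals (0.613 to 5.15 and 2.05 to 8.40) including it. A thresholded summit met a peak among the strongest 1826 of both replicates at 9 genes, nhr-3, nhr-14, nhr-19, nhr-21, nhr-31, nhr-43, nhr-48, nhr-49 and nhr-91. By summit this was 13 of 34 (38.2%), against 52.4% of all thresholded summits. Counted instead by each replicate's own summits within 2 kb, nhr-1 and nhr-137 were in both strongest lists and nhr-3 was not, because its replicate 1 summit lay 2012 bp from the 5′ end. The strongest summits of replicates 1 and 2 were at different places in both genes, at -383 and -1252 bp from the 5′ end of nhr-1 and at -971 and 1251 bp from that of nhr-137, where negative is upstream. The gene nhr-137 missed the thresholded list, with a pooled signal of 23.8.

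Many receptor gene summits were intronic or far upstream rather than at the 5′ end. Within 500 bp of a 5′ end were 14 of 34 (41.2%, 26.4 to 57.8), against 814 of all 1392 assigned summits (58.5%, 55.9 to 61.0), so the intervals met. The median distance was 845.5 bp for receptor genes and 357 bp for all. By annotation 17 were intergenic (50%, against 57.3%) and 13 intronic (38.2%, 23.9 to 54.96, against 23.3%). A further 2 were in a UTR, 1 in a coding exon and 1 in a noncoding gene. None was inside another protein-coding gene. With a window of 500 bp in place of 2 kb, 13 of 270 receptor genes had a peak (4.81%, 2.84 to 8.06), against 3.89% of all genes. Outside V 7 of 103 did (6.796%, 3.33 to 13.4), against 4.22%, so at this width the interval includes the background. On X 2 of 25 did (8%, 2.22 to 24.97), nhr-1 and nhr-91, against 5.75%. The other 6 X genes had summits only more than 500 bp from their 5′ ends.

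Receptor genes also had more sequence from which a summit could be assigned. The stretch within 2 kb that lay closer to a receptor gene's 5′ end than to any other had a median length of 3293 bp, against 2995.5 bp for all genes, 4000 against 3074.5 bp outside V and 4000 against 3689.5 bp on X. Per Mb of such sequence, receptor genes had 35.7 summits against 21.4 for all genes, 15.7 against 13.8 on V, 58.97 against 23.2 outside V and 106 against 29.1 on X. Summits closer to a noncoding gene's 5′ end than to the receptor gene's numbered 11 of 34 (32.4%, 19.1 to 49.2), against 26.2% of all assigned summits. When noncoding genes could claim summits, 19 receptor genes kept a peak (7.04%, 4.55 to 10.7), against 4.61% of all protein-coding genes, and nhr-3, nhr-31, nhr-43, nhr-47, nhr-70, nhr-97 and nhr-258 did not.

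**Figure D3:**
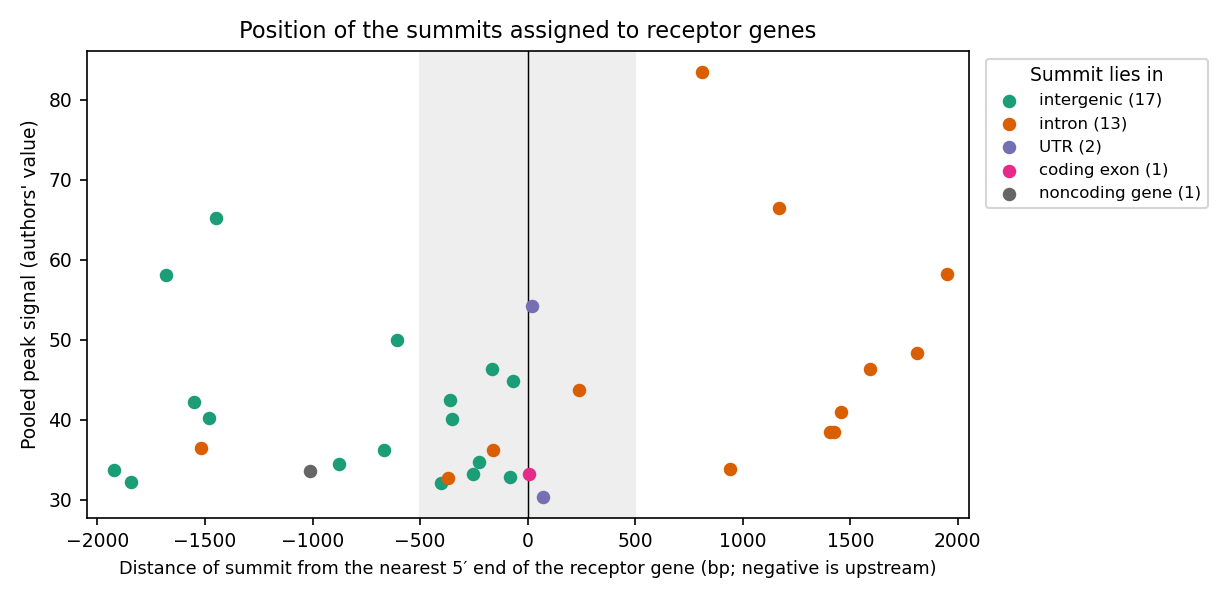
Pooled signal of the 34 receptor gene summits, in the authors' unstated scale, against distance in bp from the nearest 5′ end of the gene, coloured by annotation, with the 500 bp on each side shaded. The highest point, nhr-14 at 83.5, is intronic at 813 bp, and 14 of 34 summits lie in the shaded band.

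Of 26 receptor genes with a peak, 6 had more than 1 summit (23.1%, 11.03 to 42.1), against 127 of 1209 genes (10.5%). These were nhr-21 and nhr-91 with 3 each and nhr-14, nhr-31, nhr-48 and nhr-258 with 2.

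The receptor core, the GAGA repeat, the EOR-1 type site and the E-box were each found at some receptor gene summits, and the full NR5A site at none. The search covered both strands of a window reaching 100 bp to each side of the summit, and windows of equal width 500 bp away on either side. The full NR5A motif used was YCAAGGYCR, where Y stands for C or T and R for A or G. It was at 0 of 34 summits, which allows a share of up to 8.82%, and at 63 of 1826 thresholded summits (3.45%). The share in the whole list is below that limit, so a difference was not detectable with 34 summits. The core AGGTCA was at 8 of 34 (23.5%, 12.4 to 39.996), against 5 of 68 flanking windows (7.35%, 3.18 to 16.1) and 12.4% of all summits. The interval of the 34 summits overlaps that of the flanks and its lower end meets the share of all summits. Among the 1392 summits assigned to any gene the core was at 11.4%, just below that lower end, and the NR5A site at 2.66%. The 8 summits belonged to 6 genes, nhr-22, nhr-31, nhr-43, nhr-91, nhr-152 and nhr-258. Of the 3 bases ahead of the core that the NR5A site fixes, the 8 core sites matched 0 to 2, and none all 3. At nhr-22 the bases were acaAGGTCA and at nhr-43 tagAGGTCA, 5 and 9 bp from the summit.

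The GAGA repeat was at 7 of 34 summits (20.6%), at 0 of 68 flanking windows, which allows up to 4.41%, and at 20.6% of all summits. The 7 were nhr-1, nhr-48, nhr-49, nhr-97, nhr-120, nhr-237 and nhr-258. The EOR-1 type site GAGACGCAG, whose first letters GAG can overlap the end of that repeat, was at 5 of 34 (14.7%) against 1.47% of flanking windows and 12.2% of all summits. These 5 were nhr-1, nhr-58, nhr-70, nhr-237 and nhr-256, of which nhr-1 and nhr-237 also hold the repeat. CACGTG, the E-box, was at 5 of 34 (14.7%) against 0 of 68 flanking windows and 8.38% of all summits, and its genes were nhr-19, nhr-21, nhr-31, nhr-32 and nhr-135. Among the 1392 summits assigned to any gene, the GAGA repeat was at 19.1%, the EOR-1 type site at 12.4% and the E-box at 8.55%. At least 1 of the 5 motifs was at 22 of 34 (64.7%, 47.9 to 78.5), against 6 of 68 flanking windows (8.82%) and 815 of all 1826 summits (44.6%). A match describes the letters in a window and does not show which protein was bound.

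**Figure D4:**
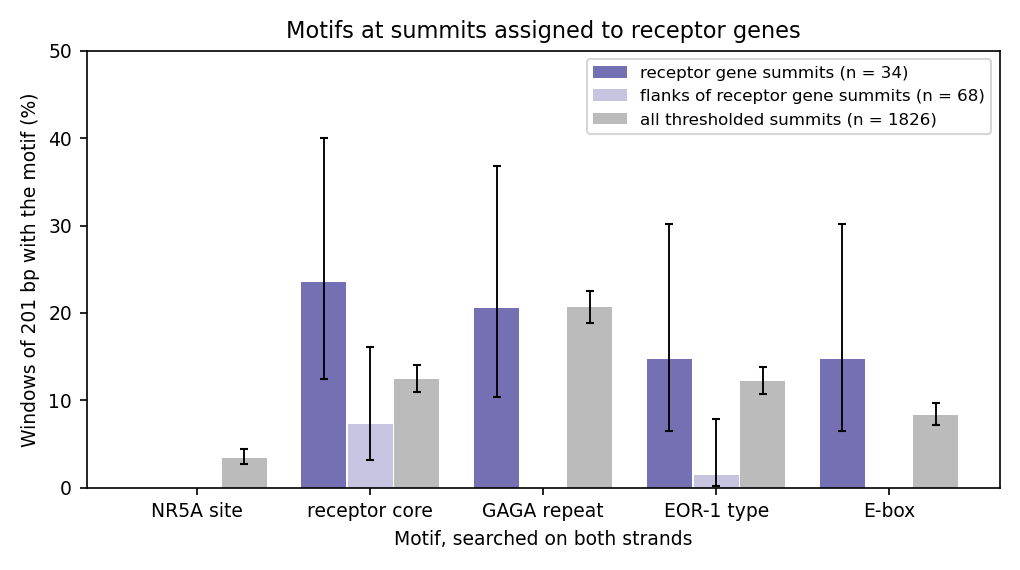
Percent of windows reaching 100 bp to each side that hold each motif, at receptor gene summits (n = 34), at windows 500 bp to either side (n = 68) and at all thresholded summits (n = 1826), with Wilson 95% intervals where the count is above 0. The receptor core is at 23.5% of receptor gene summits against 7.35% of their flanks, and no bar is drawn where the count is 0, as for the NR5A site at receptor gene summits.

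Peaks below the threshold were common among the receptor genes, as among all genes. In the pooled list, which holds peaks and background, 149 of 270 had a summit (55.2%, 49.2 to 61.0) against 46.3% of all genes. These include the 26 genes with a thresholded peak, which leaves 123 of 244 with a pooled peak alone (50.4%, against 42.9% of all genes with no thresholded peak). A further 43 had one in a replicate list only, and 78 in none. The matching shares of all genes are not given here, so these counts are not read as a trait of receptor genes. Around the threshold, the weakest thresholded receptor gene summit, at nhr-152, was 30.4 and the strongest below it were nhr-142 with 28.5, nhr-34 with 28.3 and nhr-35 with 26.8.

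Of 13 receptor genes listed for metabolic roles, 2 had a thresholded peak, nhr-49 and nhr-31 (15.4%, against 6.05% of all genes). The other 11 had a pooled one alone, so all 13 had a pooled peak, against 46.3% of all genes. The lists are small and these counts are descriptions. The partners of NHR-49 in fat metabolism had pooled top signals of 25.4 for nhr-80, 6.31 for nhr-13 and 10.6 for nhr-66. The propionate pathway gene nhr-10 had 26.5 and its partner nhr-68 had 8.64. The gene nhr-114, which acts with vitamin B12 and diet, had 23.1, nhr-62 of dietary restriction 14.97 and nhr-76 of fat storage 13.6. The other 3 listed were nhr-28 with 6.88, nhr-64 with 11.5 and nhr-69 with 6.85.

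Of 6 genes listed for stress and defence, nhr-14 and nhr-57 had a thresholded peak and nhr-86 a pooled one of 9.52, while 3 had neither. The shares of all genes to set beside the counts in these lists are again 6.05% with a thresholded and 46.3% with a pooled peak. Of 10 listed for development, epidermis and muscle, nhr-40 and nhr-91 had a thresholded peak and 4 a weaker pooled one, nhr-2 with 14.3, nhr-74 with 4.76, nhr-41 and sex-1. Of 11 conserved family members, nhr-48 and nhr-91 had a thresholded peak and 2 a weaker pooled one. These were nhr-41, with 20.9 and 11 pooled summits, and the sex determination gene sex-1, with 9.005. The neuronal and anchor cell genes nhr-67, fax-1, unc-55 and odr-7 had no pooled peak. The xenobiotic response gene nhr-8 and the spermatheca gene nhr-6 had none either, in the pool or in a replicate. The motor neuron gene unc-55 was listed in replicate 1 alone, at 5.79, and the olfactory neuron gene odr-7 likewise, at 2.08.

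The 4 receptor genes listed outside the 270 each had a thresholded peak, with top pooled signals of 248 at nhr-25, 73.2 at nhr-85, 51.01 at nhr-23 and 34.2 at the dauer receptor gene daf-12. The strain carries a transgene that makes tagged NHR-25, and no control file was used here. Whether the transgene adds to the signal at nhr-25 was not tested. Genes that work with nuclear receptors were listed too. Of 13 matched coregulator genes 4 had a thresholded peak (30.8%, against 6.05% of all genes) and 12 a pooled one, against 46.3%. The acetyltransferase gene cbp-1 had 144, the gene of the DAF-12 corepressor din-1 had 6 summits with a top of 72.3, the Mediator gene dpy-22 had 44.7 and the chaperone gene hsp-90 had 33.6. Of 10 hormone synthesis genes 0 had a thresholded peak and 5 had a pooled one, near the shares of all genes. The nearest to the threshold was daf-9, a cytochrome P450 of dafachronic acid synthesis, with 29.0.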

How the data were processed

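Per the labels, ChIP-seq was run on 2 biological replicates. The deposited signal of each peak is the authors' value, on a scale not stated. The deposited offset from the peak start gave each summit. Per the labels' file names, the replicate and pooled lists, of peaks and background, were input to an irreproducible discovery rate procedure that gave the thresholded list. No source used here gives the aligner, the peak caller or the threshold. The ce11 lists held 23929, 30000 and 30000 peaks for replicate 1, replicate 2 and the pool, and 1826 after thresholding. The ce10 lists were not used here.

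Summits were assigned to the nearest of 29326 5′ ends of protein-coding genes (WBcel235, Ensembl release 115) within 2 kb. The strongest 1826 peaks of each replicate served as replicate lists. Shares have Wilson 95% intervals, and a count of 0 was given the limit of 3 counts. Python 3.11.15, numpy 2.4.6, pandas 2.3.3, scipy 1.17.1 and matplotlib 3.10.9 were used, and the scripts were tested on simulated data. The members, lists and named genes were chosen with earlier results of these data known. Named genes are those with a thresholded peak and those in the role lists. The lists give daf-21 and hsp-90, of which hsp-90 matched. The DNA-binding domains of the receptors were not analysed here. Alternatives were each replicate alone, stronger peaks, merging of peaks, other windows, other gene assignment and other motif widths.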

Additional observations from a re-analysis of the deposited data

How the results depend on the processing

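The number of receptor genes with a peak was 26 with overlapping peaks merged, 30 when every 5′ end within 2 kb was counted, 18 with a 1 kb window and 19 when noncoding genes could claim summits. The shares of all genes with merged peaks, with every 5′ end and with the 1 kb window are not given here. With a window of 500 bp the number of receptor genes was 13, with 14 summits. Chromosome X then held 15.4% of the receptor genes with a peak, against 30.8% at 2 kb. Of all genes with a peak, X held 157 of 777 at 500 bp and 260 of 1209 (21.5%) at 2 kb. The interval of the 30.8%, from 16.5 to 49.99, includes that 21.5%. With a 1 kb window 19 summits were assigned. The lower counts of genes and summits follow from the narrower window. The share on X, 27.8% with a 1 kb window, need not fall with it. The cause of its lower value at 500 bp was not tested. With thresholded peaks above the median signal alone there were 12 genes and 14 summits, because fewer peaks were used. To leave out each replicate, the strongest peaks of the other were used, in a list cut to the length of the thresholded one. This gave 20 to 24 genes and 26 to 30 summits. Of the summits, 30% to 38.5% were within 500 bp and 19.2% to 20% had a receptor core, and 33.3% to 35% of the genes were on X. Of all genes in those lists, 254 of 1159 were on X in replicate 1 and 248 of 1191 in replicate 2. Because list length was fixed, similar counts do not show that the same genes recurred. Of the 26 genes, 14 were in the strongest peaks of replicate 1 and 21 in those of replicate 2. A further 8 genes were in either replicate's strongest peaks but had no thresholded peak. How often other genes recurred in this way is not given here, so these counts are descriptions. On chromosome V the thresholded list gave 8 genes and replicate 1 gave 3, nhr-152, nhr-256 and nhr-286. The last of these had no thresholded peak. The core share was 17.6% within 50 bp and 26.5% within 150 bp. Depth is unknown, and with 34 summits a motif in under 8.82% of sites can be missed.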

Other observations

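The 270 receptor genes were also split by their distance to each other, a split chosen after the values were seen and not tested. The shares of all genes to set beside it are 6.05% in all, 3.8% on V and 6.72% outside V. Within 10 kb of another receptor gene lay 159 of 270, and 5 of them had a peak (3.14%), nhr-49, nhr-58, nhr-135, nhr-152 and nhr-237. Of the genes farther from any other receptor gene, 21 had one (18.9%). The median length of sequence closest to each gene within 2 kb was 3045.5 bp in the first set and 4000 bp in the second. Outside chromosome V the counts were 1 of 37 and 17 of 66, and on V they were 4 of 122 and 4 of 45. By symbol, 21 of 112 genes from nhr-1 to nhr-120 had a peak (18.8%), against 5 of 154 from nhr-121 up (3.25%). Outside V these counts were 17 of 62 and 1 of 37, and on V they were 4 of 50 and 4 of 117. Grouping and symbol number overlap in the same genes and were not separated from each other.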
